A study of Mus musculus with 6 samples.

Results

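The smooth muscle contractile genes examined here are Acta2, Actg2, Tagln, Cnn1, Myh11, Myl9, Mylk, Smtn, Lmod1 and Des, taken from the count table by gene symbol. All 10 had a row in the gene count table of 15159 genes, and all 10 were among the 14758 genes with enough counts to be tested. The samples were cultures of mouse heart cells from embryos of strain C57BL/6 x 129S4/SvJae at embryonic day 18.5, kept in culture for 4 days on PDMS, a silicone, with a stiffness of 13 kPa. In the H3WT group the cells carried an inducible wild-type histone H3.3, and in the H3K9M group an inducible H3.3 with methionine at lysine 9. Both groups received doxycycline at 2 µg/ml to switch the transgene on, so they differed in the histone and not in the inducer. Each group had 3 libraries of polyadenylated RNA. The promoter that drives the transgene, the cells it acts in and whether a library came from 1 animal or from pooled animals are not given in the labels. P-values therefore measure the spread between these libraries, which may be technical. The sample titles of replicate 2 of both groups lack the word Soft that the other titles carry, although the study's description puts every culture on the soft substrate. Titles of replicate 1 of both groups lack the tag D4 that the other titles carry, although 4 days of culture are given for all.

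Smooth muscle shortens when calcium-bound calmodulin activates myosin light chain kinase, which phosphorylates the regulatory light chain so that smooth muscle myosin can pull on actin filaments. Calponin, transgelin, smoothelin and leiomodin bind those actin filaments, and desmin forms the intermediate filaments that tie the contractile apparatus together. Most of these genes are known targets of the serum response factor SRF, which binds promoter elements called CArG boxes and works with its cofactors myocardin and the myocardin-related factors. Several of them are not markers of smooth muscle alone. Acta2 and Tagln are also known from immature cardiomyocytes and from activated fibroblasts, and Des is a major filament gene of cardiomyocytes.

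The libraries held between 55550379 and 67994773 counts, and the members together made up 0.675% to 0.865% of them. Levels are given as CPM, counts scaled to a fixed normalised library size. Of 12 cardiomyocyte markers all 12 were tested, with a summed level of 27103 to 33490.0 CPM in H3WT and 29518 to 33375 CPM in H3K9M. Fibroblast markers summed to 24954 to 31662 CPM in H3WT and 20379 to 29127 CPM in H3K9M. Endothelial markers summed to 240.0 to 323 CPM in H3WT and 146 to 224 CPM in H3K9M, and macrophage and leukocyte markers to 146 to 531 CPM in H3WT and 215 to 276 CPM in H3K9M. Markers of skeletal muscle differentiation, another muscle that uses Des, were mostly without a row: Myod1, Myog, Myf5, Pax7, Myh3 and Chrna1 had none. Of the other 2, Ckm was at 231 ± 48.2 and 249.9 ± 46.1 CPM in H3WT and H3K9M. The fast troponin gene Tnnt3 was at 0.684 ± 0.240 and 4.19 ± 3.29 CPM in H3WT and H3K9M (edgeR adjusted p = 0.0611, DESeq2 adjusted p = 3.35e-05). Ckm did not pass in either tool. In bulk RNA, fewer cells of a type and less RNA per cell cannot be told apart.

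Promoter sequence in RefSeq (GRCm38.p6, the build also called mm10) was matched by symbol for 7 of the 10 members, that is for all but Actg2, Tagln and Myh11. The 250 bases before each start were searched on both strands for the CArG box and for the letters CATTCC on either strand, the core of the element bound by TEAD factors. The strict CArG box was found in 1 of 7, Myl9, against 1.47% of 32851 promoters. With 1 core base left free it was found in 2 of 7, Myl9 and Acta2, against 8.59%. CATTCC was found in 4 of 7, Lmod1, Smtn, Mylk and Acta2, against 12.6%. The following sites show these elements in the member with the highest level, in a light chain gene and in the member that fell, with the matched letters in capitals and the distance counted from the first matched base. In all of these members but Des the whole-gene model of GENCODE begins upstream of the RefSeq start. For Mylk it begins at base 34745210 of chromosome 16, while the searched bases are 34784700 to 34784949, inside the gene. In Acta2, 217 of the 250 searched bases are annotated exon of Acta2 itself, and the Acta2 sites shown lie within that exon. Binding to these sites was not measured.
Acta2 CArG with 1 free base, chr19:34255438-34255467, minus strand, 84 bases before the start: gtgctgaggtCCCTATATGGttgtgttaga
Acta2 CArG with 1 free base, chr19:34255388-34255417, minus strand, 34 bases before the start: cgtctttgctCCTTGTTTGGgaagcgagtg
Acta2 CATTCC element, chr19:34255502-34255531, minus strand, 146 bases before the start: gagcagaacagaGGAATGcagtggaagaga
Myl9 strict CArG, chr2:156775293-156775322, plus strand, 161 bases before the start: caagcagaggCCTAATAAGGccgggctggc
Myl9 CArG with 1 free base, chr2:156775355-156775384, plus strand, 99 bases before the start: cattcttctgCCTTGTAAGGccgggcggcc
Smtn CATTCC element, chr11:3539497-3539526, minus strand, 222 bases before the start: cggtttgtggcaCATTCCggactttggctt

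The comparison of H3K9M with H3WT asks how these transcripts differ between heart cells carrying the mutant and the wild-type histone. Of the 10 members 1 rose, Actg2, and 1 fell, Smtn, in edgeR's quasi-likelihood test at an adjusted p under 0.05. Over all tested genes 0.935% were higher and 1.05% lower by that test, or 1.99% in either direction. The members were chosen with results of these data known, so the 2 calls among 10 are no independent support for a change of the group. The members' median log2 fold change was -0.12, with 3 positive and 7 negative, against a median of -2.45e-03 over all tested genes. Libraries of the 2 groups did not overlap for Actg2, Smtn and Myl9, 3 of 10 members, whereas 22.6% of all tested genes showed no overlap. The share of 30% without overlap is thus near that of all genes.

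**Figure D1:**
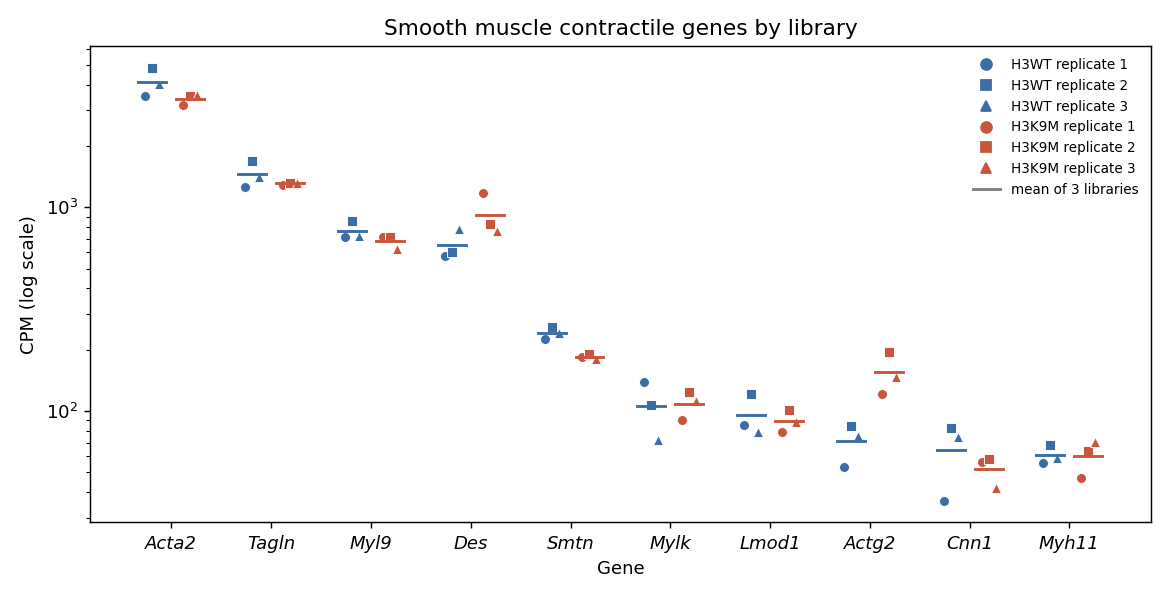
Levels of the 10 members in CPM on a log axis, with a point for each of the 3 libraries of a group and a bar for the group mean. The H3K9M libraries of Actg2 (121 to 196 CPM) lie above all H3WT libraries (53.3 to 84.7 CPM), and those of Smtn lie below.

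Levels of different genes were compared per kilobase of annotated exon, which removes gene length but still depends on which isoforms are used. In H3WT the order of these levels was Acta2 (1884 ± 301 CPM per kilobase, SD, n = 3), Tagln (731 ± 111), Myl9 (659.7 ± 69.0), Des (174 ± 30.5) and Smtn (55.2 ± 3.54). Lower levels per kilobase were those of Actg2 (45.6 ± 10.3), Lmod1 (24.1 ± 5.78), Cnn1 (23.5 ± 8.98), Mylk (9.38 ± 2.92) and Myh11 (8.01 ± 0.867). Neighbours whose mean ± SD overlapped were Tagln and Myl9, Smtn and Actg2, Lmod1 and Cnn1, and Mylk and Myh11. In H3K9M Actg2 stood at 99.3 ± 24.2 CPM per kilobase, above Smtn at 42.2 ± 1.18, and the other members kept the same order. Myh11, the heavy chain of smooth muscle myosin and the member most used to define mature smooth muscle cells, thus had the lowest mean level per kilobase in both groups. In H3K9M, too, its mean ± SD (7.93 ± 1.59) overlapped that of Mylk (9.63 ± 1.47), so the order of these 2 is not settled.

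Among the actins, Acta2 encodes the alpha actin of vascular smooth muscle and lies at chr19:34241090-34255590 (GENCODE M21, whole gene). It was at 3534, 4845 and 4036 CPM in H3WT replicates 1, 2 and 3 and 3173, 3499 and 3549.8 CPM in H3K9M replicates 1, 2 and 3. H3WT replicate 2 was the highest library and H3K9M replicate 1 the lowest, and H3WT replicate 1 lay within the H3K9M range, so the groups overlapped. Its level was 4138 ± 662 CPM in H3WT and 3407 ± 204 CPM in H3K9M (SD, n = 3), a log2 fold change of -0.28 ± 0.13 (SE), which did not pass (edgeR adjusted p = 0.316). The 95% interval of that log2 fold change was -0.57 to 0.01, and without H3WT replicate 2 it was -0.15.

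Actg2 encodes the gamma actin of smooth muscle, best known from the gut and other viscera, and lies at chr6:83512905-83536265. It was at 53.3, 84.7 and 75.3 CPM in H3WT replicates 1, 2 and 3 and 121, 196 and 147 CPM in H3K9M replicates 1, 2 and 3. Every H3K9M library was above every H3WT library, with H3K9M replicate 2 highest and H3WT replicate 1 lowest. Actg2 rose from 71.1 ± 16.1 to 155 ± 37.7 CPM (SD, n = 3), a 2.17-fold rise with a log2 fold change of 1.12 ± 0.20 (SE) and an edgeR adjusted p of 0.0373. The interval of the log2 fold change was 0.66 to 1.59. The adjusted p was 0.0542 without H3WT replicate 1, 0.0973 without H3WT replicate 2, 0.112 without H3K9M replicate 2 and 0.0976 without H3K9M replicate 3, so the edgeR call was lost in these 4 cases. Over all 14 alternatives the adjusted p ranged from 4.92e-07 to 0.259. DESeq2 (adjusted p = 4.92e-07) and limma-voom (0.0404) on the same counts also called it higher. The authors' deposited table gives Actg2 a log2 fold change of 1.09 with an adjusted p of 2.72e-06.

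The proportion of the 2 smooth muscle actins was computed within each library. For every 100 counts of Acta2 the count of Actg2 was 1.51, 1.75 and 1.86 in H3WT replicates 1, 2 and 3 and 3.82, 5.59 and 4.14 in H3K9M replicates 1, 2 and 3. The means of this ratio were 1.71 ± 0.181 and 4.52 ± 0.942 (SD, n = 3), without overlap, and a 2-sided exact permutation test gave p = 0.1, the smallest that 3 against 3 libraries allow (adjusted p = 0.275 over 11 ratios). Acta2 per 100 counts of the cytoplasmic actin Actb was 77.1, 86.6 and 76.1 in H3WT and 53.5, 67.1 and 68.5 in H3K9M, also without overlap (exact permutation p = 0.1, adjusted p = 0.275). With 3 against 3 libraries neither ratio could pass, so this test cannot decide whether the genes of a pair changed unequally. In both groups Acta2 remained far above Actg2.

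Because actin genes resemble each other, the coding sequences were compared to see whether reads could be assigned. Actg2 has 1131 coding bases and is 84.2% identical to Acta2 (1134 bases) over the coding part. The last 120 coding bases, stop codon included, show where 4 actins part, with bases that differ from Acta2 in capitals.
Acta2: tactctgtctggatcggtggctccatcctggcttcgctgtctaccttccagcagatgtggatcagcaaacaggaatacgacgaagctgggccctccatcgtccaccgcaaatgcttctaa
Actg2: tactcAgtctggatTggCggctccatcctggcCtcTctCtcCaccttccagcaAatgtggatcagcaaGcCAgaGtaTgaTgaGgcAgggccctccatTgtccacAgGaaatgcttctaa
Actc1: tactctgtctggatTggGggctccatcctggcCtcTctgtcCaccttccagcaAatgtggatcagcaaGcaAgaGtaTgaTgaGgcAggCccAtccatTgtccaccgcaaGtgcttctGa
Actb: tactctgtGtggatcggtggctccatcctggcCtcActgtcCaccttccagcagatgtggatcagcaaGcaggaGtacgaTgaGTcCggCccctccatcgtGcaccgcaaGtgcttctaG
Actg2 differs from Acta2 at 19 of these bases, the cardiac actin Actc1 at 18 and Actb at 14. Of the 50-base words in Actg2 transcripts 0 occur in the transcripts of any other gene, and of those in Acta2 transcripts 7 of 2146 do. A perfectly matching read of that length from Actg2 thus fits no other annotated transcript. The labels give neither the read length nor the handling of reads with several matches.

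The other actins did not pass the test. Actb, a cytoplasmic actin of all cells, was at 5159.6 ± 518 and 5440.3 ± 423 CPM in H3WT and H3K9M, with a log2 fold change of 0.08 ± 0.11. Actc1, the main sarcomeric actin of the heart, was at 3833 ± 381 and 3900.2 ± 394 CPM (0.03 ± 0.11), and Actg1, the other cytoplasmic actin, at 1757 ± 172 and 1798 ± 118 CPM (0.03 ± 0.10). Acta1, the skeletal muscle actin that is also expressed in the fetal heart, was at 9.38 ± 7.02 and 17.6 ± 13.5 CPM (0.90 ± 0.65), with a wide spread in both groups. Their edgeR adjusted p-values lay between 0.545 and 0.942.

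**Figure D2:**
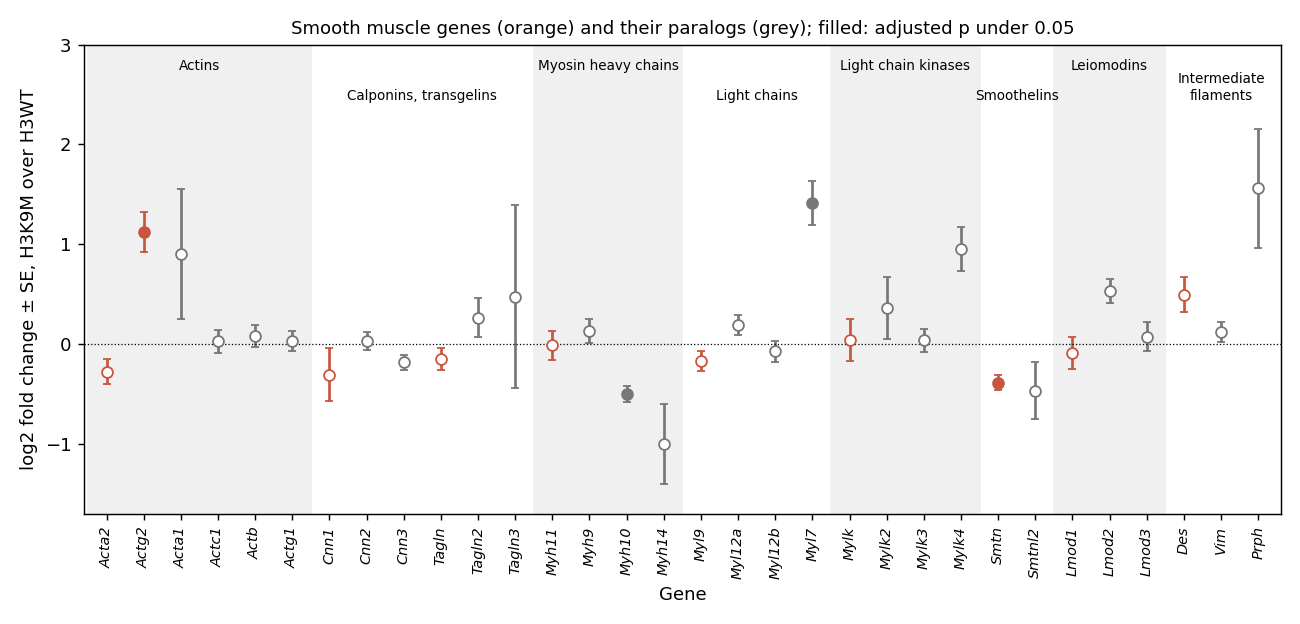
Log2 fold change of H3K9M over H3WT with its standard error (vertical axis) for the members (orange) and their paralogs (grey), grouped by gene family along the horizontal axis. Filled points passed an edgeR adjusted p of 0.05: Actg2 (1.12) and Myl7 (1.41) upwards, Smtn (-0.39) and Myh10 (-0.50) downwards.

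Of the actin-binding proteins, Tagln (transgelin, also called SM22 alpha) lies at chr9:45929619-45936058. It was at 1259.6, 1692 and 1407 CPM in H3WT replicates 1, 2 and 3 and 1286, 1319 and 1319 CPM in H3K9M replicates 1, 2 and 3. The H3K9M libraries, with an SD of 19.3 CPM, lay inside the wider H3WT range with its SD of 220.0 CPM. Its log2 fold change was -0.15 ± 0.11 (edgeR adjusted p = 0.557, interval -0.41 to 0.11), and it ranged from -0.25 without H3WT replicate 1 to -0.027 without H3WT replicate 2. Per 100 counts of Acta2, Tagln was at 35.6, 34.9 and 34.9 in H3WT replicates 1, 2 and 3 and 40.5, 37.7 and 37.2 in H3K9M replicates 1, 2 and 3, without overlap (exact permutation p = 0.1, adjusted p = 0.275). Acta2 itself had a log2 fold change of -0.28, so a higher ratio is no rise of Tagln. The antisense gene model Gm48529 covers 62.4% of the exon bases of Tagln and has no row in the count table. The strand setting of the counting is not given, so reads from these overlapping genes cannot be told apart.

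Cnn1, the calponin of smooth muscle, restrains the myosin motor on actin and is one of the later markers of the contractile state. It lies at chr9:22099216-22109630 and was at 36.3, 82.2 and 74.6 CPM in H3WT replicates 1, 2 and 3 and 56.2, 58.2 and 41.9 CPM in H3K9M replicates 1, 2 and 3. H3WT held both the highest library, replicate 2, and the lowest, replicate 1, and all H3K9M libraries lay between them. Its log2 fold change of -0.31 ± 0.27 had the largest error of the 10 members (edgeR adjusted p = 0.628, interval -0.92 to 0.31). It was -0.59 without H3WT replicate 1 and -0.091 without H3WT replicate 2. Its paralogs Cnn2 (0.03 ± 0.09) and Cnn3 (-0.18 ± 0.07) and the transgelin gene Tagln2 (0.27 ± 0.20) did not pass either.

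Smtn encodes smoothelin, an actin-binding protein of contractile smooth muscle, and lies at chr11:3517523-3540612. It was at 227, 258 and 241 CPM in H3WT replicates 1, 2 and 3 and 183, 191 and 181 CPM in H3K9M replicates 1, 2 and 3. Every H3K9M library was below every H3WT library, and the H3K9M libraries were close together. Smtn fell from 242 ± 15.5 to 185 ± 5.16 CPM (SD, n = 3), to 0.765 of its H3WT level, with a log2 fold change of -0.39 ± 0.08, an interval of -0.56 to -0.21 and an edgeR adjusted p of 0.0443. The call held without H3WT replicate 1 (0.0432) and was lost without each of the other 5 libraries in turn, with edgeR adjusted p-values from 0.0608 without H3WT replicate 3 to 0.184 without H3WT replicate 2. DESeq2 (adjusted p = 0.000432) and limma-voom (0.0453) also called it lower, and over all 14 alternatives the adjusted p ranged from 0.000432 to 0.414. The authors' deposited table gives a log2 fold change of -0.36 with an adjusted p of 0.0134. Per 100 counts of Acta2, Smtn was at 6.42, 5.32 and 5.98 in H3WT replicates 1, 2 and 3 and 5.78, 5.45 and 5.09 in H3K9M replicates 1, 2 and 3, and these ratios overlapped (exact permutation p = 0.3). Gene counts do not separate the smoothelin isoforms of vascular and visceral muscle, and the gene model Gm11946 on the other strand covers 16.3% of its exon bases.

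Lmod1, the smooth muscle leiomodin, starts new actin filaments and lies at chr1:135324807-135368065. It was at 85.8, 121 and 78.7 CPM in H3WT replicates 1, 2 and 3 and 78.7, 101 and 88.2 CPM in H3K9M replicates 1, 2 and 3. The groups overlapped, with H3WT replicate 2 above the rest, and the log2 fold change was -0.09 ± 0.16 (edgeR adjusted p = 0.828, interval -0.46 to 0.28). Lmod2, the leiomodin of heart muscle, was at 109 ± 15.8 and 158 ± 17.2 CPM with a log2 fold change of 0.53 ± 0.12, without overlap between the groups, which missed the threshold in edgeR (adjusted p = 0.0669) and passed in DESeq2 (adjusted p = 0.00144).

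Neither motor gene of smooth muscle myosin passed the test. Myh11, the heavy chain, lies at chr16:14194535-14291372 and was at 55.5, 68.2 and 58.9 CPM in H3WT replicates 1, 2 and 3 and 46.8, 64.0 and 70.1 CPM in H3K9M replicates 1, 2 and 3. The H3K9M group held both the lowest library, replicate 1, and the highest, replicate 3, and the log2 fold change was -0.01 ± 0.15 (edgeR adjusted p = 0.976, interval -0.35 to 0.32). Among the non-muscle heavy chains, Myh9 was at 2459 ± 367 and 2688 ± 143 CPM (0.13 ± 0.12), whereas Myh10 fell from 476 ± 24.4 to 336 ± 21.5 CPM (-0.50 ± 0.08, edgeR adjusted p = 0.0266). Myh10 encodes a non-muscle myosin that is known from immature smooth muscle and from heart development.

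Myl9, the regulatory light chain that the kinase phosphorylates in smooth muscle, lies at chr2:156775420-156781658. It was at 717, 859 and 724 CPM in H3WT replicates 1, 2 and 3 and 711, 713 and 622 CPM in H3K9M replicates 1, 2 and 3. Each H3K9M library was below each H3WT library, but H3K9M replicate 2 and H3WT replicate 1 differed by little. The log2 fold change was -0.17 ± 0.10 and did not pass (edgeR adjusted p = 0.462, interval -0.40 to 0.06). Without H3WT replicate 2 it was -0.079. The closely related light chain genes Myl12a (0.19 ± 0.10) and Myl12b (-0.07 ± 0.11) did not pass. Of the 50-base words of Myl9 transcripts 0 are shared with another gene. The atrial light chain gene Myl7 rose from 32.4 ± 7.43 to 86.1 ± 22.4 CPM (1.41 ± 0.22, edgeR adjusted p = 0.0221).

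Mylk encodes the light chain kinase of smooth muscle and non-muscle cells, and its last part is also transcribed as telokin, which gene counts include. It lies at chr16:34745210-35002420 and was at 138, 107 and 72.3 CPM in H3WT replicates 1, 2 and 3 and 90.6, 123 and 111 CPM in H3K9M replicates 1, 2 and 3. H3WT replicate 1 was the highest and H3WT replicate 3 the lowest of the 6, so the spread within H3WT was wider than the difference between the group means. The log2 fold change was 0.04 ± 0.21 (edgeR adjusted p = 0.954, interval -0.44 to 0.52). The antisense gene E130310I04Rik, which has a row of its own, overlaps 4.87% of the exon bases of Mylk. Mylk3, the kinase of heart muscle, was at 282 ± 38.1 and 289 ± 24.0 CPM (0.04 ± 0.11).

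Des, the desmin gene, lies at chr1:75360329-75368579. It was at 576, 600.0 and 785 CPM in H3WT replicates 1, 2 and 3 and 1171, 826 and 766 CPM in H3K9M replicates 1, 2 and 3. H3K9M replicate 1 stood above all others, and H3WT replicate 3 lay above H3K9M replicate 3, so the groups overlapped. The level was 653 ± 114 CPM in H3WT and 921 ± 219 CPM in H3K9M (SD, n = 3), a log2 fold change of 0.50 ± 0.18 with an interval of 0.09 to 0.90, which did not pass in edgeR (adjusted p = 0.216). DESeq2 on the same counts called it higher (adjusted p = 0.0433), as does the authors' deposited table (log2 fold change 0.50, adjusted p = 0.0447). Without H3K9M replicate 1 the edgeR log2 fold change was 0.28 (adjusted p = 0.448), and over all 14 alternatives the adjusted p of Des ranged from 0.0433 to 0.616.

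Per 100 counts of Acta2, Des was at 16.3, 12.4 and 19.4 in H3WT replicates 1, 2 and 3 and 36.9, 23.6 and 21.6 in H3K9M replicates 1, 2 and 3, without overlap (exact permutation p = 0.1, adjusted p = 0.275). The ratios of the other 6 members to Acta2 all overlapped between the groups, with exact permutation p-values from 0.2 for Myh11 to 0.9 for Cnn1. How many of all genes have a ratio to Acta2 without overlap was not computed. Per 100 counts of the cardiac troponin gene Tnnt2, a marker of cardiomyocytes, Des was at 10.2, 10.2 and 12.7 in H3WT and at 18.9, 13.7 and 12.7 in H3K9M, with overlap (exact permutation p = 0.2). The cardiomyocyte markers summed to 28659.6, 27103 and 33490.0 CPM in H3WT replicates 1, 2 and 3. In H3K9M replicates 1, 2 and 3 their sum was 33375, 29518 and 32584 CPM. The sums of H3WT replicate 3 and of H3K9M replicate 1, where Des was highest, were nearly equal. The part of cardiomyocytes in the level of Des was not tested. The intermediate filament gene Vim, of fibroblasts and other mesenchymal cells, was at 3019.9 ± 244 and 3289 ± 240.5 CPM (0.12 ± 0.10) and did not pass.

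**Figure D3:**
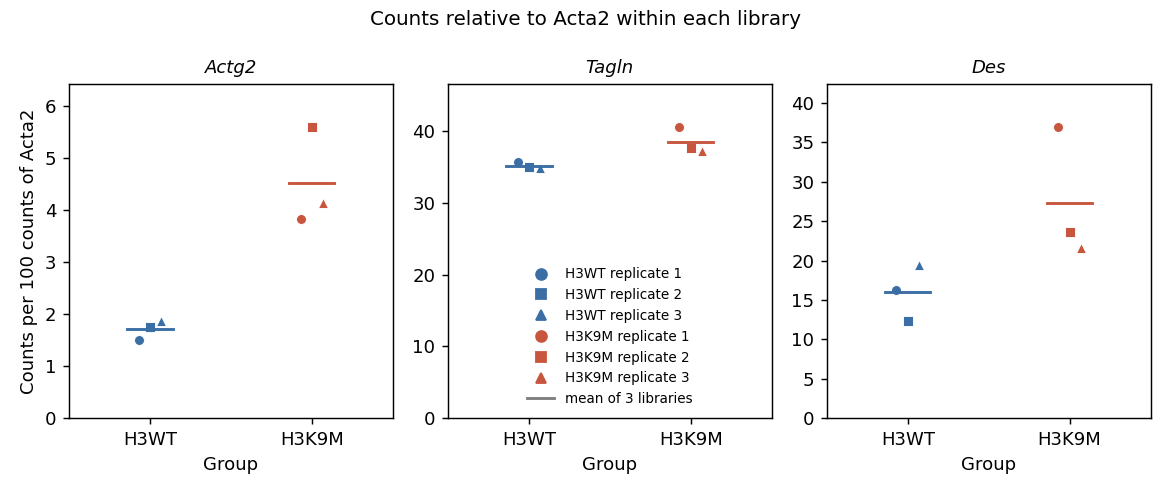
Counts of Actg2, Tagln and Des per 100 counts of Acta2 in the same library (vertical axis from 0) by group, with 1 point per library and a bar for the mean. The H3K9M libraries lie above the H3WT libraries in all 3 panels, by a wide gap for Actg2 (means 1.71 and 4.52) and a narrow one for Tagln (means 35.1 and 38.5). These 3 are the members whose ratios did not overlap, and the other 6 are not drawn. All panels share the denominator Acta2, whose own log2 fold change was -0.28, while that of Tagln was -0.15. None passed after adjustment, and with 3 against 3 libraries none could, as the smallest exact permutation p is 0.1.

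**Figure D4:**
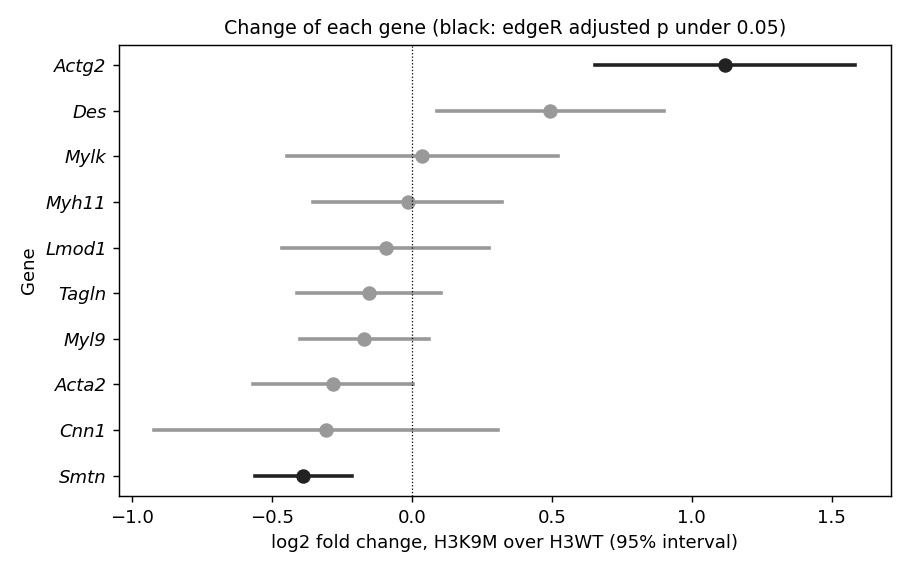
Log2 fold change of each member, H3K9M over H3WT (horizontal axis), with its 95% interval as a bar. The intervals of Actg2 (0.66 to 1.59), Smtn (-0.56 to -0.21) and Des (0.09 to 0.90) leave out 0, and of these Des does not pass after adjustment over all genes.

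**Figure D5:**
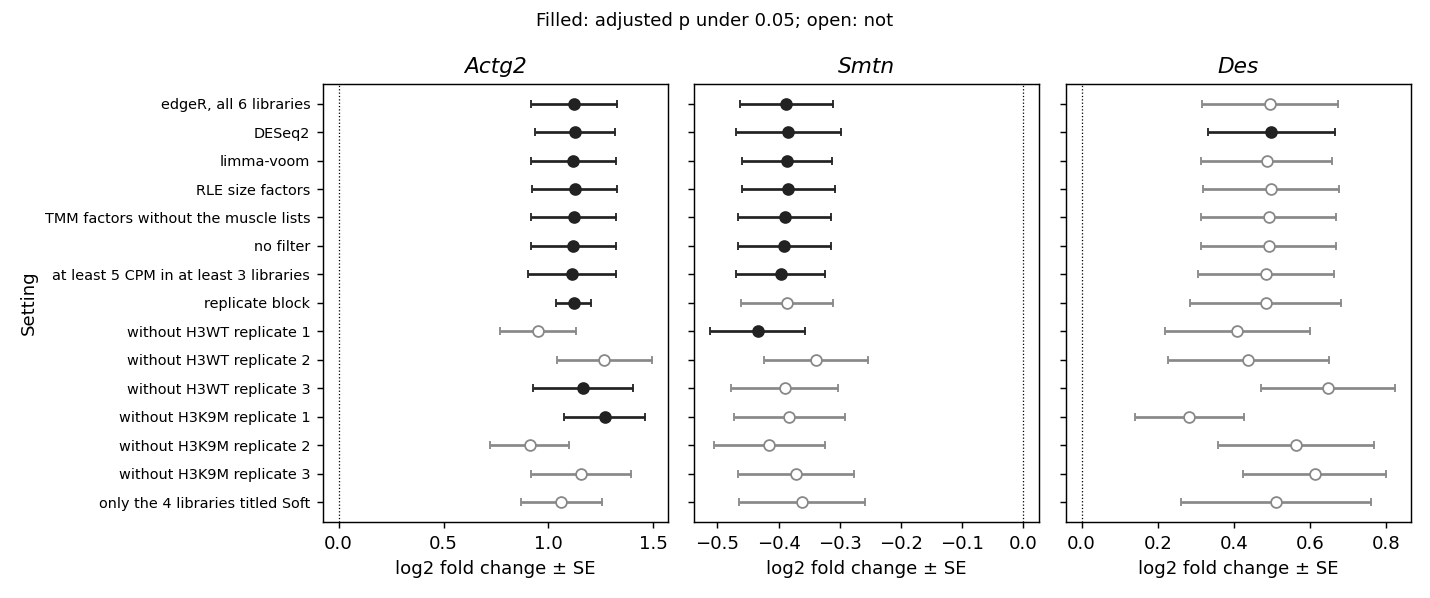
Log2 fold change ± SE (horizontal axis) of Actg2, Smtn and Des under each way of processing the counts (vertical axis), with filled points past an adjusted p of 0.05. Actg2 stays between 0.91 and 1.27 and Smtn between -0.43 and -0.34, while the adjusted p crosses the threshold when single libraries are left out.

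The members varied among libraries of the same group as well as between groups. H3WT replicate 2 was the highest library for 6 of 10 members (Acta2, Tagln, Cnn1, Myl9, Smtn and Lmod1), against 13.7% of all tested genes. H3WT replicate 1 was the lowest library for 4 (Actg2, Tagln, Cnn1 and Des), against 22.0% of all tested genes. The summed level of the members was 6681, 8717 and 7553 CPM in H3WT replicates 1, 2 and 3 and 6917, 7089.5 and 6897 CPM in H3K9M replicates 1, 2 and 3. These sums, of which Acta2 is the largest part, overlapped. On the log2(CPM + 1) scale 7 of 10 members had a larger SD in H3WT than in H3K9M, against 53.1% of all tested genes.

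Of 18 transcription regulators of the smooth muscle programme, none passed in edgeR, DESeq2 or limma-voom, and at an unadjusted edgeR p under 0.05 there were 1 higher (Srf) and 1 lower (Mef2c). Their median log2 fold change was -0.03, with 7 positive and 11 negative. Over all 14758 tested genes 1148 were higher and 1271 lower at an unadjusted edgeR p under 0.05. Srf, the factor that binds CArG boxes, was at 134, 153 and 159 CPM in H3WT replicates 1, 2 and 3 and 201, 168 and 175 CPM in H3K9M replicates 1, 2 and 3. All H3K9M libraries were above all H3WT libraries for Srf, but the log2 fold change of 0.29 ± 0.10 did not pass (edgeR adjusted p = 0.196). Mef2c, a muscle transcription factor, was at 86.6 ± 7.19 and 71.9 ± 8.60 CPM (-0.27 ± 0.10). The LIM-domain genes Fhl2 (-0.22 ± 0.11) and Csrp1 (0.23 ± 0.11), cofactors of this programme, had the highest CPM on the list. Myocd, the myocardin gene, is named for its role and was at 110.1 ± 11.5 and 92.1 ± 20.1 CPM (-0.26 ± 0.15, edgeR adjusted p = 0.435). Mkl1 (0.17 ± 0.13) and Mkl2 (0.05 ± 0.08), the genes of the myocardin-related factors, and Tead1 (-0.11 ± 0.08), a factor of the CATTCC element, are named for the same reason and did not pass.

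Of 25 genes of light chain phosphorylation and calcium control 0 rose and 1 fell in edgeR, the latter being Myh10, with 2 higher (Dapk3 and Kcnmb1) and 2 lower (Prkg1 and Myh10) at an unadjusted p under 0.05. DESeq2 called 1 higher (Kcnmb1) and 2 lower (Prkg1 and Myh10), and limma-voom 0 higher and 1 lower. Over all genes DESeq2 called 471 higher and 539 lower of 15159, and limma-voom 110 higher and 112 lower of 14758. The list had 10 positive and 15 negative log2 fold changes. Its shares at the unadjusted p were near those of all 14758 tested genes, of which 1148 were higher and 1271 lower. Prkg1, the cyclic GMP-dependent kinase that relaxes smooth muscle, was at 31.1 ± 3.45 and 20.2 ± 3.47 CPM (-0.62 ± 0.14, edgeR adjusted p = 0.0723) and missed the threshold. The essential light chain gene Myl6 was at 813 ± 88.4 and 737 ± 68.6 CPM (-0.14 ± 0.11). Kcnmb1, a potassium channel subunit typical of smooth muscle, was singled out after its values were seen. It was at 7.89, 18.8 and 17.4 CPM in H3WT replicates 1, 2 and 3 and 37.2, 29.95 and 26.2 CPM in H3K9M replicates 1, 2 and 3, without overlap, but its log2 fold change of 1.08 ± 0.29 did not pass (edgeR adjusted p = 0.106).

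Of 24 thin filament and dense body partners 0 rose and 1 fell in edgeR, DESeq2 and limma-voom alike, with 1 higher (Synm) and 2 lower (Pdlim3 and Pgm5) at an unadjusted edgeR p under 0.05. Signs were 16 positive and 8 negative. The gene that fell was Pgm5, a protein of adherens junctions in muscle, from 78.4 ± 8.98 to 53.5 ± 2.42 CPM (-0.55 ± 0.10, edgeR adjusted p = 0.0321). The tropomyosin gene Tpm1 was at 5722 ± 129 and 5007 ± 329.9 CPM (-0.19 ± 0.09), the filamin gene Flna at 3208 ± 399.8 and 3072 ± 161 CPM (-0.06 ± 0.11) and the intermediate filament gene Synm at 8.41 ± 2.27 and 13.0 ± 3.42 CPM (0.62 ± 0.24). Of 22 tested paralogs 1 rose (Myl7) and 1 fell (Myh10), with 17 positive and 5 negative log2 fold changes and a median of 0.10. DESeq2 called 3 paralogs higher (Myl7, Lmod2 and Mylk4) and 1 lower (Myh10), and limma-voom 1 higher and 1 lower. At an unadjusted edgeR p under 0.05, 1148 of all 14758 tested genes were higher and 1271 lower. Over all 15159 genes DESeq2 called 471 higher and 539 lower, and over 14758 genes limma-voom called 110 higher and 112 lower.

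Markers of other cells that could hold these transcripts were measured beside the members. Of 11 tested pericyte and mural markers 0 rose and 0 fell in edgeR or limma-voom. At an unadjusted edgeR p under 0.05 there were 2 higher (Abcc9 and Ndufa4l2) and 2 lower (Cox4i2 and Heyl), and DESeq2 called the same 4. Their summed level was 1339 to 1488 CPM in H3WT and 1515 to 1624 CPM in H3K9M, higher in every H3K9M library. Most of that sum came from Pdgfrb, Cspg4, Mcam and Notch3, which other mesenchymal cells also express, while Rgs5 (2.23 and 1.62 CPM), Kcnj8 (0.656 and 0.898) and Higd1b (0.336 and 0.188) were near 0 and Vtn had no row. Of 12 fibroblast markers 4 had a positive and 8 a negative log2 fold change, with a median of -0.52. In edgeR 1 of them rose, the collagen receptor gene Ddr2 (0.66 ± 0.10, edgeR adjusted p = 0.021), and 0 fell, with 2 higher (Ddr2 and Thy1) and 3 lower (Tcf21, Fn1 and Cthrc1) at an unadjusted p under 0.05. DESeq2 called 2 fibroblast markers higher (Ddr2 and Thy1) and 2 lower, Fn1 (adjusted p = 0.000411) and Cthrc1 (0.0383), and limma-voom 1 higher and 0 lower. Of 10 epicardial and mesothelial markers 1 rose, the keratin gene Krt8 (from 0.917 ± 0.330 to 8.89 ± 4.397 CPM, 3.27 ± 0.46, edgeR adjusted p = 0.0159), and 0 fell, with a summed level of 142 to 195 CPM in H3WT and 149 to 201 CPM in H3K9M. That list had 6 positive and 4 negative log2 fold changes. At an unadjusted p under 0.05 there were 4 higher (Krt8, Krt18, Krt19 and Msln) and 2 lower, Lrrn4 (-1.59 ± 0.48) and Aldh1a2 (-0.92 ± 0.38). DESeq2 called 1 higher (Krt8) and 0 lower, and limma-voom none. For all of these lists the background at an unadjusted edgeR p under 0.05 was 1148 higher and 1271 lower of 14758 tested genes. At an adjusted p under 0.05 DESeq2 called 471 higher and 539 lower of 15159 genes, and limma-voom 110 higher and 112 lower of 14758.

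Of 12 cardiomyocyte markers none passed in edgeR, with 2 higher (Pln and Nppa, the latter at 1811, 989 and 405 CPM in H3K9M and 286 to 480.5 CPM in H3WT, with overlap) and 0 lower at an unadjusted p under 0.05 and 1 higher (Pln) in DESeq2. Of 12 endothelial markers, 1 with a positive and 11 with a negative log2 fold change, none passed in edgeR, while 6 were lower at an unadjusted p under 0.05 and 2 (Tek and Egfl7) were lower in DESeq2. Over all genes 1148 of 14758 were higher and 1271 lower at that unadjusted edgeR p. DESeq2 called 471 of 15159 genes higher and 539 lower. On both lists limma-voom called none, against 110 higher and 112 lower of all 14758 genes. Of 10 macrophage and leukocyte markers, all 10 with a negative log2 fold change, none passed in edgeR, DESeq2 or limma-voom and none had an unadjusted p under 0.05. The single marker genes given here were chosen after their values were seen. What part these cells have in the rise of Actg2 and the fall of Smtn was not tested.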

How the data were processed

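Polyadenylated RNA of 6 libraries, 3 per group, was sequenced. The submitters' processing notes list HISAT2, featureCounts and DESeq2 (build mm10), without versions or a strand setting. Raw read counts were deposited for 15159 genes. The authors' deposited comparison table covers 14691 genes and holds, per gene, a signal (the mean of normalised counts), a log2 fold change and its error, raw and adjusted p-values, and a test statistic, a score not used here. The authors' mean normalised count was 0.254 (median) of that computed from the deposited counts, and 0.238 to 0.249 for the members, so their table was not made from these counts as they stand.

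After filterByExpr (minimum 10 counts, total 15) and TMM normalisation, the groups were compared by the quasi-likelihood test of edgeR 4.0.16 (R 4.3.3). The model held the group alone, and p-values of all 14758 tested genes were adjusted by Benjamini-Hochberg and read at 0.05. The standard error is the log2 fold change over the square root of F. The median standard error was 0.133. The members and lists were chosen with earlier results of these data known. All members are named, and of each other smooth muscle list the genes past the threshold, the 2 with the highest CPM and the 2 with the smallest p. Further genes are named for their role. Exon lengths came from GENCODE M21 (GRCm38). Alternatives were DESeq2 1.42.0, limma-voom (limma 3.58.1), RLE factors, TMM factors without the muscle lists, 2 other filters, a replicate block, each library left out, and only the 4 libraries with Soft in the title. Replicates of a group differed by a chi-square of 26.5 to 118 per gene, so none is a copy. On simulated counts of 14758 genes for H3K9M against H3WT, edgeR found 74% of the 2-fold changes and 81% of the 4-fold changes, with 10 false calls among 165. On the same simulated counts DESeq2 made 32 false calls among 196, and limma-voom 4 among 158. Changes smaller than 2-fold, such as those of Smtn and Des, were not simulated.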

Additional observations from a re-analysis of the deposited data

How the results depend on the processing

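Acta2, Tagln, Cnn1 and Myl9 kept a negative and Actg2 and Des a positive log2 fold change in all 14 alternatives, and Smtn a negative one. Their size moved when H3WT replicate 2 was left out, to -0.15 for Acta2, -0.027 for Tagln, -0.091 for Cnn1 and -0.079 for Myl9, and when H3WT replicate 1 was left out, to -0.25 for Tagln and -0.59 for Cnn1. Cnn1 was at -0.19 without H3WT replicate 3 and -0.17 without H3K9M replicate 3, where Myl9 was at -0.11. In the 4 libraries titled Soft the values were -0.17 for Acta2, -0.034 for Tagln, -0.18 for Cnn1 and -0.11 for Myl9. Without 1 library at a time edgeR called 30 to 149 genes higher and 30 to 223 lower over all genes (138 and 155 with all libraries), 0 to 1 members higher and 0 to 1 lower. DESeq2 called 471 genes higher and 539 lower, with 2 members higher (Actg2 and Des). With only the 4 libraries titled Soft edgeR called 0 genes higher and 0 lower and 0 members in either direction, where 606 genes were higher and 772 lower at an unadjusted p under 0.05, with 1 member each way. In that fit the adjusted p was 0.259 for Actg2 and 0.414 for Smtn, and no other tool was run on it. Deviations of same-numbered libraries from their group means correlated at -0.27, 0.06 and -0.13, and not every library correlates best with its own number. Deviations from a mean of 3 libraries depend on each other, so these values cannot decide whether the numbers pair the samples. The titles tag replicates 1, 2 and 3 as M1, M2 and M5 in H3WT and as M1, M3 and M5 in H3K9M. What these tags mean is not given. With the replicate block edgeR called 31 genes higher and 27 lower, 1 member higher (Actg2, adjusted p = 0.018) and 0 lower (Smtn, 0.124). At an unadjusted p under 0.05 that fit had 1 member and 972 genes higher, and 2 members and 1028 genes lower. Members near 0 changed sign. Without 1 library at a time the log2 fold change ranged from -0.14 to 0.14 for Myh11, from -0.17 to 0.28 for Mylk and from -0.21 to 0.12 for Lmod1. It was positive for Myh11 without H3WT replicate 2 (0.076) or H3K9M replicate 1 and for Lmod1 without H3WT replicate 2, and negative for Mylk without H3WT replicate 3 or H3K9M replicate 2 (-0.070). In the 4 libraries titled Soft it was 0.031 for Myh11, -0.058 for Mylk and 0.022 for Lmod1. Fewer libraries leave fewer degrees of freedom, and the cause of each change was not tested. All 10 members had at least 2040.0 counts in every library, a depth at which counting error is small.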
